A study of Drosophila melanogaster with 12 samples.

Results

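MicroRNA genes were located in the AGO2 and RNA polymerase II (Pol II) ChIP-seq interval lists of Kc167 cells, an embryonic Drosophila melanogaster line labelled female. Members were all genes of the dm6 annotation with a symbol beginning mir- or a precursor microRNA transcript, 260 precursors of 18277 annotated genes on 7 chromosomes. Precursors within 5 kb of each other were joined, which gave 202 loci. Of these, 176 held 1 precursor and 26 held 2 or more, up to 8. AGO2 was profiled in cells nucleofected with double-stranded RNA against LaminB, the B-type lamin of the nuclear envelope, and in mock cells nucleofected without it, and Pol II was profiled in mock cells only. Cells were collected 3 days later. AGO2 and Pol II libraries numbered 2 in each group, against 2 knockdown and 4 mock input libraries. Each group was deposited as 1 pooled list: 761 LaminB knockdown AGO2 peaks, 4201 mock AGO2 peaks and 5905 mock Pol II domains. The lists hold no replicate values, so no difference between knockdown and mock cells could be tested over samples, and read depth, LaminB levels and expressed markers of the cell line were not analysed here.

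MicroRNAs are short RNAs cut from hairpin precursors. In flies, Drosha with its partner Pasha releases the hairpin in the nucleus, Dicer-1 cuts the mature duplex from it in the cytoplasm, and the product is mostly loaded on AGO1, while AGO2 mainly carries small interfering RNAs. The bases at the start of the mature strand, called the seed, pair with target messenger RNAs, so microRNAs with 1 seed can share targets. Many precursors lie in introns of protein-coding genes and are transcribed with the host by Pol II. Others have transcription units of their own, often annotated as long noncoding RNA genes. AGO2 has also been described on chromatin, which is what ChIP-seq measures. A ChIP interval over or beside a precursor reports protein on DNA and not the amount of microRNA.

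RefSeq mature sequences (Release 6, the same assembly as dm6) were matched to all 260 precursors, whose coordinates were equal in both annotations. The largest group with a common seed was the K-box family, named for a motif that it represses in Notch pathway messenger RNAs. Its seed AUCACAG occurred in 14 precursors at 7 loci. A mock AGO2 peak was within 5 kb of 6 of these, against 80 of all 202 loci (39.6%). A knockdown AGO2 peak was within 5 kb of 1, against 24 of all 202 (11.9%). Mature strands from the 3′ arm are shown for 6 members, with the seed, bases 2 to 8, in capitals, to show how alike these genes are.
mir-2a-1: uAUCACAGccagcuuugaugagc
mir-2b-1: uAUCACAGccagcuuugaggagc
mir-2c: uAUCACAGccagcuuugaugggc
mir-13a: uAUCACAGccauuuugaugagu
mir-13b-1: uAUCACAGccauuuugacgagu
mir-11: cAUCACAGucugaguucuugc

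Other mature strands belong to loci to which the results return. The mir-279 and mir-996 pair, which shares a seed, had a knockdown AGO2 peak and no mock AGO2 peak within 5 kb. Precursors mir-9377, mir-4962 and mir-4949 were the ones under a knockdown AGO2 peak. A mock AGO2 peak was over mir-34, known for its role in ageing of the fly brain. Seeds are again in capitals, and the arm of the hairpin follows the name.
mir-279-3p: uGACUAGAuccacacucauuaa
mir-996-3p: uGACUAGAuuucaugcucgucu
mir-9377-5p: cGCUCUUUcucucuaucuggcc
mir-9377-3p: cUUGAUGGggagaaggagagg
mir-4962-3p: gACGAUGUagagagugagggaga
mir-4949-5p: cGGCACACucgcacacacaca
mir-34-5p: uGGCAGUGugguuagcugguugug
mir-ban-3p: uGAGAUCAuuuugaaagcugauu
mir-282-5p: uAGCCUCUacuaggcuuugucugu

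The DNA under mock AGO2 summits is given for some of these loci and for mir-9388. Each window is 101 bases of the plus strand of dm6, 50 to each side of the summit. Capitals mark GAGAG or its reverse complement CTCTC, the core letters bound by GAGA factor, and runs of adjoining or overlapping matches appear as 1 stretch. The windows at mir-9377, mir-4962 and mir-4949 share bases with the precursor itself. The windows shown are a choice and hold these letters more often than the 133 mock windows near a locus (24.1%). Those at mir-277 with mir-34 and at mir-ban, which hold no match, are not shown.
mir-9377, chrX:12665253-12665353: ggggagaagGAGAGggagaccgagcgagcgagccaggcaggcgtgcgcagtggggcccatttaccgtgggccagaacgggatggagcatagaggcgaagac
mir-4962, chrX:3777406-3777506: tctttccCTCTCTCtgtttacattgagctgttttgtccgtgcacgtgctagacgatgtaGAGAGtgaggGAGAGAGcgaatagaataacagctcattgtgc
mir-282, chr3L:3250579-3250679: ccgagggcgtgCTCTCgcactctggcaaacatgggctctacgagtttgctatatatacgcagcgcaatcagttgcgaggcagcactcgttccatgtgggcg
mir-9388, chr3L:22945382-22945482: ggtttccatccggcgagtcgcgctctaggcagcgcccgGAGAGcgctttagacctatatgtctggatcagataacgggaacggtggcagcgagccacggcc
mir-4949, chr3R:31219356-31219456: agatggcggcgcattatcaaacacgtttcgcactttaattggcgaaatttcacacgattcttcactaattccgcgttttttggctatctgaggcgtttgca

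GAGAG on either strand was present in 53.8% of the 39 knockdown AGO2 summit windows near a microRNA locus, against 49.4% of all 761. It was present in 24.1% of the 133 mock AGO2 windows near a locus, against 24.9% of all 4201. Windows near microRNA loci thus held the letters about as often as the rest of their own list. A second motif, TATCGATA on either strand, bound by DREF, was in 0 of the 39 and 0 of the 133 windows, against 0.131% of all knockdown and 0.333% of all mock windows. A match is a description of letters and not a measured site.

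Knockdown AGO2 peaks were within 5 kb of 24 of the 202 loci (11.9%), mock AGO2 peaks of 80 (39.6%) and Pol II domains of 106 (52.5%). The share of all bases of the 7 chromosomes within 5 kb was 4.73% for the knockdown AGO2 list, 21.3% for the mock AGO2 list and 30.9% for the Pol II list. MicroRNA loci thus lay near intervals of each list more often than the average base, without a test. A locus spans a median of 97.0 bp, so its reach is little wider than that of a base. The 5′ ends of the 18017 other genes gave 6.02% for knockdown AGO2, 38.3% for mock AGO2 and 60.7% for Pol II. For mock AGO2, then, microRNA loci were near peaks about as often as gene starts. For Pol II they were near less often, and for knockdown AGO2 more often, again without a test. The AGO2 lists differ in length, and no share of gene starts was computed for a mock list of the knockdown length. Within 1 kb, the counts were 12 loci (5.94%) for knockdown AGO2, 35 (17.3%) for mock AGO2 and 56 (27.7%) for Pol II, against 1.26%, 7.04% and 11.6% of bases in the same order of lists.

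Intervals over a precursor were rarer. Knockdown AGO2 peaks overlapped precursors at 3 loci (1.49%), mock AGO2 peaks at 12 (5.94%) and Pol II domains at 18 (8.91%), with any shared base counted. The lists cover 0.242%, 1.86% and 3.64% of bases in that order. The median locus was 69.6 kb from the nearest knockdown AGO2 peak, 8.40 kb from the nearest mock AGO2 peak and 4.45 kb from the nearest Pol II domain. The locus farthest from both AGO2 lists was mir-2279, at 1718 kb from a knockdown peak and 832 kb from a mock peak. Near 81 loci (40.1%) no interval of any list was found within 5 kb.

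**Figure D1:**
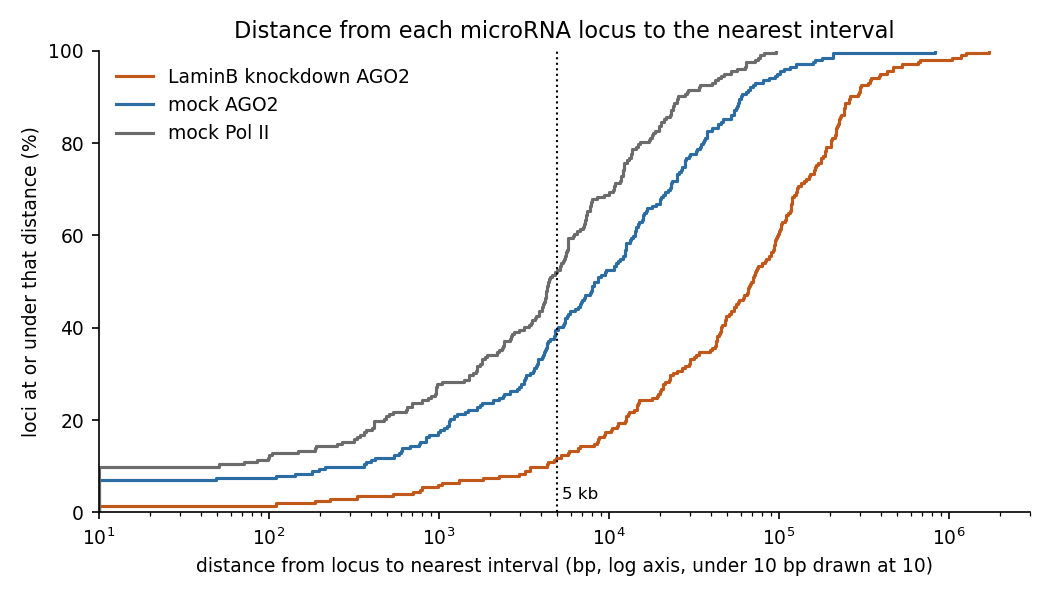
The share of the 202 microRNA loci (y axis, percent) at or under each distance to the nearest interval (x axis, bp, log scale, distances under 10 bp drawn at 10), with 1 line for each list. At the dotted line, 5 kb, the knockdown AGO2 line stands at 11.9%, the mock AGO2 line at 39.6% and the Pol II line at 52.5%.

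The comparison of intronic with intergenic loci asks whether AGO2 and Pol II favoured precursors inside protein-coding host genes. A locus was called intronic where its precursors lie wholly inside a protein-coding gene on either strand and touch none of its exons (99 loci), intergenic where no protein-coding gene holds them (59), and exonic where they touch an exon (41). The other 3 loci had members of different kinds. Of the 59 intergenic loci, 29 lie inside a long noncoding gene, so this group is not free of hosts. Knockdown AGO2 peaks were within 5 kb of 13 intronic loci (13.1%), against 6 intergenic loci (10.2%). The odds ratio was 1.34 with a 95% interval of 0.440 to 4.55 (Fisher's exact test, two-tailed, p = 0.625, BH-adjusted over the 3 lists p = 0.625). Mock AGO2 peaks were within 5 kb of 38 intronic loci (38.4%), against 20 intergenic loci (33.9%), with an odds ratio of 1.21 and an interval of 0.589 to 2.54 (exact p = 0.612, adjusted p = 0.625). Pol II domains were within 5 kb of 54 intronic loci (54.5%), against 23 intergenic loci (39.0%), with an odds ratio of 1.88 and an interval of 0.928 to 3.83 (exact p = 0.0708, adjusted p = 0.213). None of the 3 comparisons passed the adjusted threshold of 0.05, and the intervals leave room for differences in either direction. The mock AGO2 odds ratio was below 1, at 0.551 (Fisher's exact test, adjusted p = 0.337), when the mock list was limited to its 761 highest ranked peaks. With long noncoding genes counted as hosts, 126 loci were compared. The odds ratios were then 2.19 for knockdown AGO2, 1.65 for mock AGO2 and 1.85 for Pol II (Fisher's exact test, adjusted p = 0.519 for each).

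Both kinds of place were near intervals more often than their own kind of base. For knockdown AGO2, 6.35% of intronic bases and 2.59% of intergenic bases were within 5 kb. For mock AGO2 these shares were 19.8% of intronic and 11.7% of intergenic bases, and for Pol II 26.3% of intronic and 17.1% of intergenic bases. The 41 exonic loci had knockdown AGO2 near 5 (12.2%), against 4.94% of exonic bases. They had mock AGO2 near 20 (48.8%), against 37.1% of exonic bases, and Pol II near 26 (63.4%), against 57.7%. No test was run on loci against bases.

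**Figure D2:**
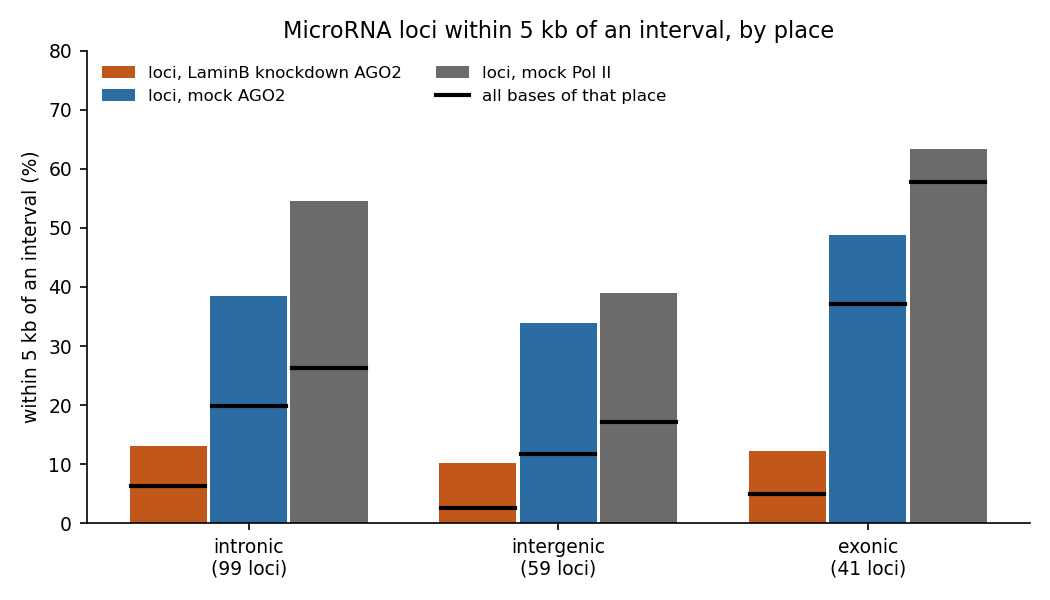
The share of microRNA loci within 5 kb of an interval (bars, percent) in intronic, intergenic and exonic place, with 1 bar for each list, beside the share of all bases of that place within 5 kb (black lines). Each bar stands above its line, by the widest margin for Pol II at intronic loci, 54.5% of loci against 26.3% of bases.

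Precursors under an AGO2 peak lay mostly in introns, where 49.0% of all loci are. Of the 12 loci with a mock AGO2 peak over a precursor, 10 were intronic, 1 was intergenic and 1 was exonic. Hosts of the intronic ones included RpS23, a ribosomal protein gene (mir-308), ND-23, a subunit of mitochondrial complex I (mir-4911), Top1, the topoisomerase that relaxes DNA during transcription (mir-4957), and mam, a coactivator of Notch (mir-4978). The precursors mir-4957 and mir-4978 are on the strand opposite to their hosts. The intergenic one held mir-277 and mir-34, inside the long noncoding gene lncRNA:CR43459, and the exonic one was mir-4949. Pol II domains covered a precursor at 11 intronic, 4 intergenic and 3 exonic loci. Of the 12 precursors under mock AGO2, 4 were also under Pol II: mir-986, mir-308, mir-4949 and mir-4957. The peak over mir-4978 was among the weakest of its list, with a −log10 p of 15.6, rank 4134 of 4201. The strongest of the 12 mock peaks was the one over mir-9377, at 51.3, followed by mir-4949 (41.4), mir-277 with mir-34 (38.1) and mir-4962 (37.9), while the other 8 lay between 15.6 and 23.2. The −log10 p is the authors' pooled peak score, which ranks peaks within 1 list and depends on depth. Scores of the knockdown and mock lists are therefore given side by side without a test. Where the mock list is limited by a knockdown score, the same dependence on depth applies.

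Pol II domains covered precursors with hosts of varied function, among them mir-995 in the cell cycle kinase gene Cdk2, mir-3645 in Mlc-c, a myosin light chain gene, mir-980 in CG3777 and mir-966 in Pfas, a gene of purine synthesis. The 4 intergenic ones were mir-14, mir-282, mir-4942 and mir-11182, of which mir-14 and mir-282 lie inside long noncoding genes. At mir-92a and mir-92b, mock AGO2 peaks with −log10 p of 28.6 and 17.7 lay between the precursors at a TSS of jigr1 and over neither of them.

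The 3 loci with knockdown AGO2 over a precursor also had mock AGO2 there. In an intron of Tis11, whose product promotes decay of messenger RNAs with AU-rich elements, mir-9377 lies at chrX:12665217-12665268 on the plus strand. The knockdown peak over it had a −log10 p of 43.4 (rank 66 of 761, 4.15-fold over background) and spanned 494 bp. The mock peak over it had a −log10 p of 51.3 (rank 268 of 4201, 4.07-fold) and spanned 439 bp. Around mir-9377, 5 knockdown peaks and 4 mock peaks were within 5 kb, and the 4 mock peaks each overlapped a knockdown peak. The nearest Pol II domain was 1688 bp upstream. Here, as at mir-14, the knockdown list held more peaks than the mock list, although it is the shorter list. A difference in binding was not tested.

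At mir-4962 (chrX:3777382-3777505, plus strand), in an intron of Tlk, the Tousled-like kinase that acts in chromatin assembly, each AGO2 list had 5 peaks within 5 kb. The knockdown peak over the precursor had a −log10 p of 24.3 (rank 457) and the mock peak 37.9 (rank 594). Of the 5 knockdown peaks, 3 overlapped a mock peak, and the other 2, at 619 bp downstream and 1254 bp upstream, overlapped Pol II domains. An exon of ATPsynC, which encodes a subunit of the mitochondrial ATP synthase, overlaps mir-4949 (chr3R:31219274-31219372, minus strand). It was covered by a knockdown peak with a −log10 p of 28.4 (rank 293), a mock peak with 41.4 (rank 463) and a Pol II domain. All of these also covered an annotated transcription start site (TSS) of ATPsynC, so binding at the microRNA and at the host promoter cannot be told apart.

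**Figure D3:**
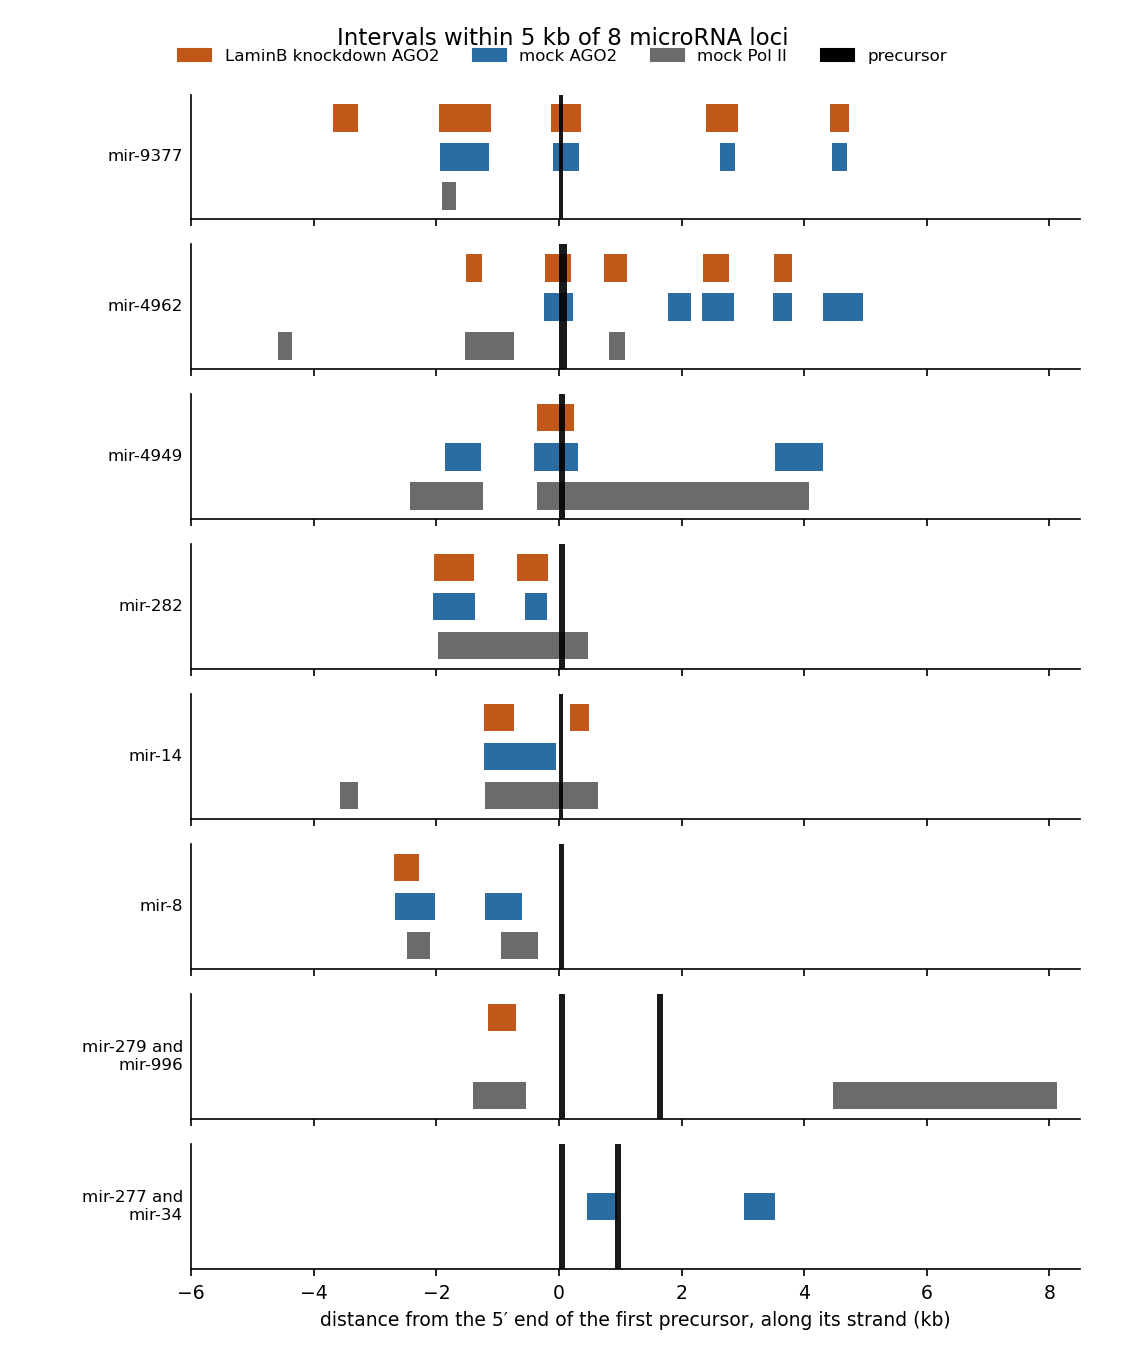
Intervals within 5 kb of 8 microRNA loci against the distance from the 5′ end of the first precursor along its strand (x axis, kb, upstream to the left), with knockdown AGO2 peaks in the upper row of each panel, mock AGO2 peaks in the middle row, Pol II domains in the lower row and precursors as black lines. Around mir-9377 there are 5 knockdown and 4 mock AGO2 peaks, around mir-279 and mir-996 there is 1 knockdown peak and no mock peak, and around mir-277 and mir-34 there are 2 mock peaks and no other interval.

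Of the 24 loci near knockdown AGO2, 21 (87.5%) were also near mock AGO2, and these were 26.2% of the 80 mock loci. By locus, 13 were intronic, 6 intergenic and 5 exonic. Their knockdown peaks numbered 39, of which 29 (74.4%) overlapped a mock peak, against 83.8% of all knockdown peaks. Near the 24 loci, 17 had 1 knockdown peak, 3 had 2 and 4 had 3 or more. By side, 24 of the 39 were upstream of the locus, 12 were downstream and 3 were over its span, against 66 upstream, 53 downstream and 14 over the span of 133 mock peaks.

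At intergenic loci, 7 of 8 knockdown peaks were upstream, against 19 of 33 mock peaks (57.6%). Of the 8, 6 belonged to loci inside long noncoding genes, where 29 of all 59 intergenic loci (49.2%) lie. The 8 peaks lay near only 6 loci, so these counts are small. At mir-282 (chr3L:3250335-3250834 for the nearer peak), inside lncRNA:CR43626, knockdown peaks stood 188 and 1382 bp upstream with −log10 p of 27.9 and 31.2, and mock peaks 197 and 1377 bp upstream with 40.0 and 56.7. All 4 covered an annotated TSS of lncRNA:CR43626, and a single Pol II domain ran from there across the precursor. At mir-8, a growth regulator of the miR-200 family, a knockdown peak lay 2279 bp upstream (−log10 p 27.4, rank 328), against mock peaks 602 and 2017 bp upstream (17.6 and 46.0). The knockdown peak overlapped the stronger of the mock peaks, and all 3 covered a TSS of lncRNA:CR43650.

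At mir-14, which limits cell death and fat storage in flies, knockdown peaks lay 111 bp downstream (−log10 p 33.5, rank 169) and 734 bp upstream (24.3, rank 462). A single mock peak of 1169 bp ended 49 bp upstream of the precursor (53.2, rank 234). The upstream knockdown peak overlapped it and the downstream one overlapped no mock peak. A Pol II domain overlapped all of them and covered mir-14. At mir-317, the knockdown peak lay 3466 bp upstream (23.7) and overlapped 1 of 2 mock peaks, and none of these peaks was on a Pol II domain. At mir-9388, the knockdown peak 1318 bp upstream (22.2) overlapped no mock peak, while mock peaks stood 7 and 2703 bp downstream (51.0 and 38.8).

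Near 3 loci the knockdown list had a peak and the mock list had none within 5 kb. At mir-279 and mir-996, inside lncRNA:CR31044, a knockdown peak lay 710 bp upstream of mir-279, with a −log10 p of 22.1 (rank 590 of 761) and 3.58-fold enrichment. It covered a TSS of lncRNA:CR31044 and a Pol II domain, and the nearest mock peak was 14411 bp away. In flies, mir-279 represses formation of CO2-sensing neurons. At mir-1006, a mirtron in VhaSFD, a subunit gene of the vacuolar proton pump, the knockdown peak lay 994 bp upstream (24.8, rank 438) and the nearest mock peak 8023 bp away. At mir-2489, in an exon of the metalloprotease gene kuz, the knockdown peak lay 4893 bp downstream with a −log10 p of 20.0 (rank 748), close to the end of its list, and the nearest mock peak 5520 bp away, just outside the 5 kb limit. All 3 were below the list's median of 25.9. Absence from the mock list says that no mock peak passed the authors' threshold, not that AGO2 was absent.

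The other intronic loci near knockdown AGO2 had hosts of several kinds. At mir-998 and mir-11, in E2f1, a cell cycle transcription factor gene, the knockdown peak lay 3240 bp downstream (25.2) and overlapped none of the 3 mock peaks, of which the nearest lay 181 bp upstream (33.9). At mir-967, in bun, the knockdown peak 1050 bp upstream (24.7) covered a TSS of bun, and the mock peak, 1809 bp downstream (16.3), did not overlap it. At mir-965, in the chromatin remodeler gene kis, 2 knockdown peaks 3460 and 4348 bp upstream (32.1 and 44.8) overlapped 2 of the 3 mock peaks (55.6 and 50.9). At mir-4978, all 3 knockdown peaks (22.1, 24.9 and 21.8) overlapped mock peaks, the strongest of which had a −log10 p of 85.8 (rank 40).

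Near mir-1013, in the Hippo pathway kinase gene wts, the peaks of both lists overlapped, with a knockdown −log10 p of 32.8 and a mock −log10 p of 31.1. The peaks of both lists also overlapped at mir-9384 in tacc (23.4 in knockdown cells, 25.7 in mock cells), at mir-4968 in Mob2 (22.1 in knockdown cells, 23.1 in mock cells) and at mir-970 in Tomosyn (23.2 in knockdown cells, 48.2 in mock cells). At mir-1014 (26.1 in knockdown cells, 71.4 in mock cells) and mir-4965 (31.9 in knockdown cells, 63.0 in mock cells), the overlapping peaks covered a TSS of another gene than the host, CG1910 and mbt. Among exonic loci, mir-4943 had the strongest knockdown peak near any locus, 1822 bp downstream (−log10 p 62.0, rank 17 of 761), which overlapped a mock peak of 95.7 (rank 23 of 4201). At mir-9374, the peaks of both lists covered a TSS of its host Hr39, a nuclear receptor gene (25.1 in knockdown cells, 18.0 in mock cells). At mir-4955, in trol, which encodes perlecan, they overlapped 539 bp upstream in the knockdown list and 422 bp upstream in the mock list (24.0 and 68.7).

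The best mock score per locus was higher, in the median, at loci that also had a knockdown peak. The strongest mock peak within 5 kb had a −log10 p of 16.3 to 95.7 (median 48.2) at the 21 loci that also had a knockdown peak, against 15.4 to 105 (median 22.0) at the 59 loci without one. The groups overlapped over most of their range. A best score can rise with the number of mock peaks near a locus, which was not held equal. The peak that gave it need not overlap a knockdown peak. The strongest mock peak of all loci, at mir-4957 in Top1 (−log10 p 105, rank 10), had no knockdown peak within 5 kb. Of the 10 loci with the strongest mock peaks, 2 others had none either, mir-987 in CG13739 and CG13954 (62.6, rank 126) and the intergenic mir-2496 (58.3, rank 170).

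**Figure D4:**
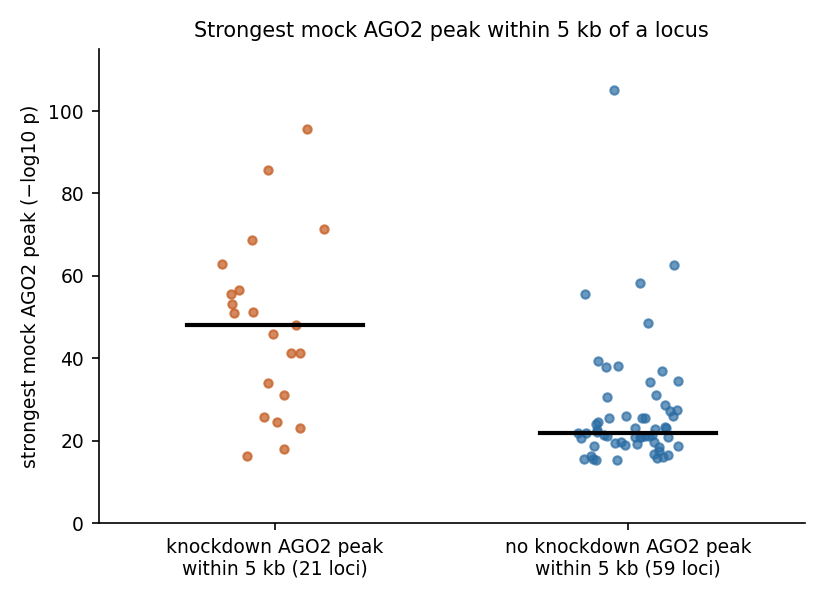
The strongest mock AGO2 peak within 5 kb of each locus (y axis, −log10 p as given by the authors), at the 21 loci with a knockdown AGO2 peak within 5 kb and the 59 without, 1 point a locus, with medians as black lines (horizontal jitter has no meaning). The medians were 48.2 with and 22.0 without a knockdown peak, and the ranges overlap.

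The mock AGO2 list is longer than the knockdown list, so it was also limited to the same length. The 761 highest ranked mock peaks were within 5 kb of 24 loci (11.9%), 10 of them intronic and 10 intergenic. The knockdown peaks were within 5 kb of 24 loci too. Of all bases, 4.73% were within 5 kb of a knockdown peak, against 5.09% for the limited mock list. The lists shared 14 loci, 58.3% of each. The share common to these equally long lists was not computed for all peaks or for gene starts. This overlap therefore has no background, and whether AGO2 moved between microRNA genes was not tested. At equal length, then, the number of microRNA loci was the same in both lists. At an equal score it was not. The 2474 mock peaks that scored no less than the weakest knockdown peak reached 60 loci (29.7%), 31 of them intronic and 17 intergenic, against 24 loci for the knockdown list, though scores depend on depth. A difference in AGO2 binding at microRNA genes cannot be told apart from a difference in list length with these files.

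AGO2 and Pol II intervals were found at many of the same loci. Knockdown AGO2 was within 5 kb of 21 of the 106 loci near Pol II (19.8%), against 3 of the 96 loci without Pol II (3.12%). Mock AGO2 was within 5 kb of 66 of the 106 (62.3%), against 14 of the 96 (14.6%). Both intervals also follow gene starts, so these shares are a description, and the same shares were not computed for other genes. By peak, the overlap near microRNA loci was about that of the whole lists. Of the 39 knockdown peaks near a locus, 56.4% overlapped a Pol II domain, against 56.1% of all knockdown peaks. Of the 133 mock peaks near a locus, 60.9% did, against 63.0% of all mock peaks. All 3 lists had an interval near 19 loci, and mock AGO2 and Pol II without knockdown AGO2 near 47. Pol II alone was near 38 loci and mock AGO2 alone near 12, among them mir-277 with mir-34.

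Host promoters lay near most intronic precursors, at a median of 2968 bp. Of the 64 intronic loci with a host TSS within 5 kb, 9 were near knockdown AGO2 (14.1%), 29 near mock AGO2 (45.3%) and 47 near Pol II (73.4%). Of the 35 without one, 4 were near knockdown AGO2 (11.4%), 9 near mock AGO2 (25.7%) and 7 near Pol II (20.0%). Loci with a near host TSS were thus more often near Pol II and mock AGO2, with little difference for knockdown AGO2, without a test. The distance from these intervals to the host TSS was not measured. A Pol II domain covered a host TSS for 72 of the 99 intronic loci, a mock AGO2 peak for 28 and a knockdown AGO2 peak for 9. The share of all protein-coding genes with a covered TSS was not computed, so these counts have no background and describe no trait of hosts. Among intergenic loci, the 29 inside a long noncoding gene were near knockdown AGO2 in 4 cases, mock AGO2 in 12 and Pol II in 11. The 30 outside any protein-coding or long noncoding gene gave 2, 8 and 12 in the same order of lists. Genes of other kinds were not checked as hosts.

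Lists of microRNAs with known roles were counted beside the shares over all loci, 11.9% for knockdown AGO2, 39.6% for mock AGO2 and 52.5% for Pol II, without a test since the lists are small. All 5 growth and survival loci had mock AGO2 within 5 kb, 4 had Pol II and 2, mir-14 and mir-8, had knockdown AGO2. Of these, mir-ban (bantam), which promotes growth and blocks cell death, had mock peaks 1491 and 2411 bp upstream with −log10 p of 25.9 and 31.1, the farther on a TSS of lncRNA:CR43334, and a Pol II domain across both. Its nearest knockdown peak was 8574 bp away. Of mir-184 and mir-278, the nearest mock peaks were 1746 and 609 bp away. Of the 7 K-box loci, 1 was near knockdown AGO2 (mir-11), 6 near mock AGO2 and 5 near Pol II. The exception for mock AGO2 was mir-2b-1, with its nearest mock peak at 20780 bp.

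No interval of any list was within 5 kb of the 6 loci of muscle and nervous system microRNAs, mir-1, mir-7, mir-9a, mir-124, mir-133 with mir-288, and mir-315, as for 81 of all 202 loci (40.1%). Their nearest mock AGO2 peaks were 5449 (mir-315) to 64082 bp (mir-124) away, and their nearest Pol II domains 5191 to 64549 bp away, at the same 2 loci. The 3 Hox complex loci, mir-10, mir-993 and mir-iab-4 with mir-iab-8, were likewise near none, with mock AGO2 at 8619 to 15105 bp. The let-7 complex, which times development, had its nearest knockdown peak 90472 bp away, its nearest mock AGO2 peak 3651 bp away and its nearest Pol II domain 11825 bp away. Among 4 rapidly evolving clusters, 0 were near knockdown AGO2, 1 near mock AGO2 and 2 near Pol II. Of the 9 other loci studied in fly cells, 3 were near knockdown AGO2 (mir-282, mir-317 and mir-279 with mir-996), 6 near mock AGO2 and 6 near Pol II. Mirtrons are introns whose splicing takes the place of Drosha cleavage, and of 15 mirtron loci 3 were near knockdown AGO2, 6 near mock AGO2 and 9 near Pol II.

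Other values of the peaks near microRNA loci are given beside those of their whole lists. The 39 knockdown peaks had a median −log10 p of 24.9 (all: 25.9), and 38.5% covered a TSS (all: 38.9%). The 133 mock peaks had a median of 22.7 (all: 21.4), 39.8% covered a TSS (all: 36.5%) and 60.9% overlapped a Pol II domain (all: 63.0%). A knockdown peak overlapped 29 of these 133 mock peaks (21.8%), against 15.2% of all mock peaks. Genes of the microRNA pathway were also examined. No knockdown AGO2 peak lay over drosha, pasha, Dcr-1, loqs, AGO1 or gw. A mock AGO2 peak lay over AGO1 alone, at a TSS (−log10 p 47.0, rank 325). Pol II domains lay over all 6, at a TSS in each but loqs. The share of all genes with an interval over them was not computed, so these counts have no background. As a wider measure, the 5′ ends of non-microRNA genes were within 5 kb of knockdown AGO2 in 6.02%, mock AGO2 in 38.3% and Pol II in 60.7%.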

How the data were processed

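ChIP-seq of AGO2 and Pol II in Kc167 cells was deposited as 3 interval lists on dm6. Per the labels, the authors used cutadapt 1.10 for trimming, Bowtie2 2.2.8 for alignment, SAMtools 1.3.1 for quality filtering, Picard 2.5.0 for duplicate removal and MACS2 2.1.1.20160309 to call intervals on pooled replicates. AGO2 peaks were kept to a number set by the irreproducible discovery rate, so list length depends on depth and enrichment. Pol II domains were kept if called in a replicate too, then merged (bedtools 2.25.0). Deposited AGO2 lists give a fold enrichment (a ratio) and a −log10 p per peak, while the Pol II list gives coordinates only. Depth per library is not in the lists.

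Precursors, hosts and TSSs came from Ensembl 115 (BDGP6.54, the coordinates of dm6), and mature sequences from RefSeq. The authors' annotation may differ. Distances are between nearest bases. Intronic and intergenic loci were compared by Fisher's exact test with Benjamini-Hochberg adjustment over 3 lists (Python 3.11.15, scipy 1.17.1, statsmodels 0.14.6). The joining of loci, the counting of near intervals and the odds ratio were checked on planted loci. That check held no case without a difference and did not cover the adjustment. The loci given in full are those with an interval over a precursor or a knockdown peak within 5 kb, then the strongest mock peaks and lists of known microRNAs. Members and lists were chosen with earlier results of these data known. The conditions were not tested against each other, because each list pools its 2 libraries.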

Additional observations from a re-analysis of the deposited data

How the results depend on the processing

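Of 62 alternative values, 52 stayed in direction, on the same side of the threshold and, for counts, within 1.5 times the main count. A flank of 1 kb gave 12 loci for knockdown AGO2, 35 for mock AGO2 and 56 for Pol II, and a flank of 2 kb gave 15, 48 and 69 in that order, since a narrower flank holds fewer intervals. The peaks of each AGO2 list above its middle rank by −log10 p reached 11 loci for knockdown AGO2 and 51 for mock AGO2. The mock list at the length of the knockdown list reached 24 loci and turned its intronic against intergenic odds ratio to 0.551. No alternative brought an odds ratio past the threshold, and the nearest, exonic loci counted with intronic ones for Pol II (odds ratio 2.09, Fisher's exact test, adjusted p = 0.0622), was chosen after seeing the data. The lists pool their libraries, so no replicate could be left out. No paired analysis was possible because the lists carry no replicate numbers. Repeats that 50-base reads cannot place are underrepresented, and counts near a locus rest on 1 annotation release.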
